A study of Mus musculus with 6 samples.

Results

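The genes described here are the G1 cyclins, their kinases and the CDK inhibitors of mouse group 2 innate lymphoid cells (ILC2): the cyclins Ccnd1, Ccnd2, Ccnd3 and Ccne1, the kinases Cdk4 and Cdk6, and the inhibitors Cdkn1a, Cdkn1b, Cdkn2c and Cdkn2d. They were chosen by name and matched by symbol to the Ensembl identifiers of the count files. Of the 10 listed genes 9 were matched, and all 9 passed the filter on low counts, of 16231 genes that passed it and 37991 in the files. The annotation's identifier for Cdkn2d was not among the matched ones, so no value is given for it.

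ILC2 are tissue lymphocytes without antigen receptors that answer IL-25 and IL-33 with type 2 cytokines. Every library was made from homozygous Id1 transgenic mice, in which the lck proximal promoter drives Id1, a protein that blocks the DNA binding of E proteins. The line arose in FVB/N and had 10 or more generations of backcrossing to C57BL/J, and the labels state that T cell development is blocked in these animals. There were 3 groups of 2 libraries: mesenteric lymph node (MLN) ILC2 grown with 10 ng/ml each of IL-33, IL-25 and IL-7 over 1 week (cultured MLN), ILC2 taken straight from the thymus (thymus), and ILC2 taken straight from MLN (fresh MLN). Cells were sorted as Lin-Thy1+ST2+, with about 300000 per sample, and no group is labelled as having the normal genotype.

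Whether a cell leaves G1 and copies its DNA is set by cyclin-dependent kinases. D-type cyclins, made in answer to growth signals, switch on CDK4 and CDK6, which phosphorylate the retinoblastoma protein and free E2F factors. E2F then drives cyclin E, which acts through CDK2. Of the inhibitors, the INK4 proteins (p18 from Cdkn2c, p19 from Cdkn2d) bind CDK4 and CDK6 alone, whereas p21 (Cdkn1a) and p27 (Cdkn1b) bind cyclin-CDK complexes more widely. Cdkn1a is a classical target of the transcription factor p53.

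The sequences around the start sites of Cdkn1a and Cdkn1b are shown because the balance between these 2 inhibitors differed between the groups by more than that of the other 2 pairs of members compared. They come from RefSeq on build GRCm38.p6, which is later than the build of the counts, and each runs 5′ to 3′ from 250 bases before the start to 50 bases after it. Capitals mark a p53 site in the first window, GC boxes (GGGCGG) in the second, and a GC box and CCAAT boxes in the third, searched on both strands.
Cdkn1a, first start, chr17:29090729-29091028, plus strand: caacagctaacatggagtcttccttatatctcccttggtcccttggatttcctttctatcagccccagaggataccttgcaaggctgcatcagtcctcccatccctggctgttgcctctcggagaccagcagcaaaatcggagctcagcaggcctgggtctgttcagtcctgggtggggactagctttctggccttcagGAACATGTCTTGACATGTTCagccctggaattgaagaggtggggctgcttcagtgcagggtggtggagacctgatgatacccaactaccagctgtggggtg
Cdkn1a, second start, chr17:29093519-29093818, plus strand: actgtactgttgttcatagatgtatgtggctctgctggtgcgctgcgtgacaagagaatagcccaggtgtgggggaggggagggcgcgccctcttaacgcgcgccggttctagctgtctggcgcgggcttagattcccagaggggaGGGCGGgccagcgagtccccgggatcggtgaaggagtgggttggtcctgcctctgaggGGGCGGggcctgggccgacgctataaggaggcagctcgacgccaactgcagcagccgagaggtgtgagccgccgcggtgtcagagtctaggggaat
Cdkn1b, chr6:134920151-134920450, plus strand: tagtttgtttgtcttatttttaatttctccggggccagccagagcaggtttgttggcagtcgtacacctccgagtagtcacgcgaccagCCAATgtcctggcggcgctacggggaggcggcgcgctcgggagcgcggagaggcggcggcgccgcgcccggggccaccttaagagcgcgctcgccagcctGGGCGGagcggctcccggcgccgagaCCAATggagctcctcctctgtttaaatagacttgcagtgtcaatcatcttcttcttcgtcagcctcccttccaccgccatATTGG
The first Cdkn1a window held 1 match to the p53 site, taken as 2 adjacent half-sites with at most 1 mismatch outside their core letters, a pattern that reads the same on both strands. That allowance was set after this window had been read. Of all 32851 windows of the same length, 0.0548% held such a match. None of the windows found for the other members did. The GC box stood in 35.7% of all windows and CCAAT in 37.4%, and no marked motif overlapped another. E2F forms (TTTGGCGC, TTTCCCGC, TTTCGCGC or TTTGCCGC, either strand) stood in 2.26% of all windows and in none found for a member. A match is a string of letters in a window and not a measured binding site.

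Depth was even, at 35280692 to 40578264 counts per library, so that 3 counts equalled 0.0739 to 0.0905 CPM (counts scaled to a common library size with TMM factors). Whether libraries of the same group are separate animals or cultures is not stated in the labels, and the p values cover no more than the spread among these libraries, which may be technical. Id1, the gene of the transgene, stood at 1.48 and 1.19 CPM in cultured MLN, 422 and 426 CPM in thymus and 434 and 469 CPM in fresh MLN. The libraries labelled cultured MLN thus held little Id1 message although their label is transgenic, and the reason was not tested. Of 12 ILC2 identity genes 7 were higher in cultured MLN than in thymus and 5 were lower, and none was at 0 counts in any library. Of all genes tested, 34.8% were higher and 37.8% lower in that comparison. Gata3 and Il1rl1 (ST2) stood at 599 CPM or more in every library. Rora averaged 146 ± 23.7 CPM in cultured MLN, 718 ± 129 CPM in thymus and 610.5 ± 40.6 CPM in fresh MLN, and Il7r averaged 852 ± 24.3 CPM in cultured MLN, 1429.9 ± 25.6 CPM in thymus and 2280.5 ± 195 CPM in fresh MLN (SD, n = 2 each). The IL-25 receptor gene Il17rb, named after its values were seen, averaged 112 ± 8.51 CPM in cultured MLN, 1652 ± 5.03 CPM in thymus and 2906 ± 14.2 CPM in fresh MLN. Thy1, used in the sort, stood at 107 and 120 CPM in cultured MLN, 725.5 and 736 CPM in thymus and 371 and 299.7 CPM in fresh MLN.

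Marker lists of other cells were low but differed between groups. The sum of 11 T cell and thymocyte genes was 90.6 to 102 CPM in cultured MLN, 160 to 161 CPM in thymus and 137 to 144 CPM in fresh MLN, with Rag1 and Rag2 at 0 counts in both cultured libraries and Ptcra at 0 in both thymus libraries. Of the 10 tested, 0 were higher in cultured MLN than in thymus, 9 were lower and 1 was not called, where 37.8% of all genes were lower. In thymus against fresh MLN 6 of the 10 were higher and 1 was lower. The lower one, Cd3e, was far more abundant than Rag1 and Rag2, at 73.3 ± 0.833 CPM in thymus and 95.8 ± 7.88 CPM in fresh MLN. Rag1, among the higher, averaged 0.528 ± 0.333 CPM in thymus and 0.0133 ± 0.0188 CPM in fresh MLN. Rag2, also higher, averaged 0.600 ± 0.0582 CPM and 0.0133 ± 0.0188 CPM. The sum of 7 macrophage and monocyte genes was 25.6 to 27.7 CPM in cultured MLN, 9.34 to 12.6 CPM in thymus and 87.8 to 91.0 CPM in fresh MLN. Of the 6 tested, 3 were higher and 3 lower in cultured MLN than in thymus, and likewise against fresh MLN. Cd68, among the higher, averaged 16.4 ± 0.682 CPM in cultured MLN and 3.94 ± 0.374 CPM in thymus. Lyz2, among the lower, averaged 0.280 ± 0.267 CPM and 1.80 ± 1.33 CPM. The sum of 4 NK cell genes was 94.2 to 188 CPM in cultured MLN, 37.9 to 41.8 CPM in thymus and 48.8 to 51.8 CPM in fresh MLN. Nearly all of the cultured sum was Gzma, at 141 ± 66.5 CPM, while Ncr1, Klrb1c and Eomes were each lower in cultured MLN than in thymus, with Klrb1c at 0 in both cultured libraries. The sum of 5 dendritic cell genes was 38.1 to 43.1 CPM in cultured MLN, 10.9 to 13.3 CPM in thymus and 16.7 to 17.7 CPM in fresh MLN. Xcr1 made up 36.1 ± 3.79 CPM of the cultured sum, while Zbtb46 was lower, at 0.318 ± 0.0203 CPM in cultured MLN and 2.10 ± 0.105 CPM in thymus. Against fresh MLN 3 of the 4 dendritic cell genes tested were lower in cultured MLN and 1 was higher. Among B cell genes Ighm averaged 66.1 ± 7.91 CPM in cultured MLN, 57.1 ± 1.91 CPM in thymus and 161 ± 27.7 CPM in fresh MLN, and Ms4a1 was at 0 counts in both cultured libraries. Over all libraries the sums were 148 to 196 CPM for 7 stromal, epithelial and endothelial genes and 1.57 to 2.21 CPM for 3 erythroid genes. Most of the first sum was Pecam1, at 153 ± 2.51 CPM in cultured MLN, 135 ± 6.02 CPM in thymus and 105 ± 7.28 CPM in fresh MLN. Of its 4 genes tested, 3 were higher in cultured MLN than in thymus. Pdgfrb was lower, at 8.42 ± 2.44 CPM in cultured MLN and 54.7 ± 0.826 CPM in thymus. The part of these cells in the member differences was not tested, and in bulk RNA fewer cells of a type and less RNA per cell cannot be told apart.

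The main comparison sets cultured MLN against thymus, because both groups had more of the transcripts of dividing cells than fresh MLN. Cultured MLN and thymus differ at once in tissue, in culture and in added cytokines, and also differed in the message of the transgene. All of these go together in this comparison, so the part of each in a change was not tested. Mki67, a marker of cells in cycle, averaged 590 ± 14.3 CPM in cultured MLN, 663 ± 66.2 CPM in thymus and 20.8 ± 2.42 CPM in fresh MLN (SD, n = 2 each). All 19 listed proliferation genes were higher in cultured MLN than in fresh MLN, and all 19 were higher in thymus than in fresh MLN. The list was chosen with earlier results of these data known. Of all genes tested, 39.4% were higher in the first of these comparisons and 25.3% in the second. Between cultured MLN and thymus the list was split, with 6 higher, 8 lower and 5 not called (edgeR quasi-likelihood test, adjusted p under 0.05). With library totals alone the split was 2 higher and 13 lower, and with RLE factors it was 6 and 6.

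In cultured MLN against thymus, 5 of the 9 members were higher (Ccnd2, Ccnd3, Ccne1, Cdk6, Cdkn1a), 2 were lower (Cdkn1b, Cdkn2c) and 2 were not called (Ccnd1, Cdk4). Among all genes tested 34.8% were higher and 37.8% lower, so 72.7% were called in either direction, and the members' share was near that background. The members' changes were mostly small. Their median log2 fold change was 0.29, against -0.06 over all genes, and their median absolute change was 0.40, against 0.68 over all genes. Cdkn1a stood apart from the other 8, with an absolute change greater than that of 96.1% of all genes. Scaling by library totals alone moved the median of all genes to -0.32, and the share of calls that were higher to 35.1%, against 47.9% with TMM factors.

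**Figure D1:**
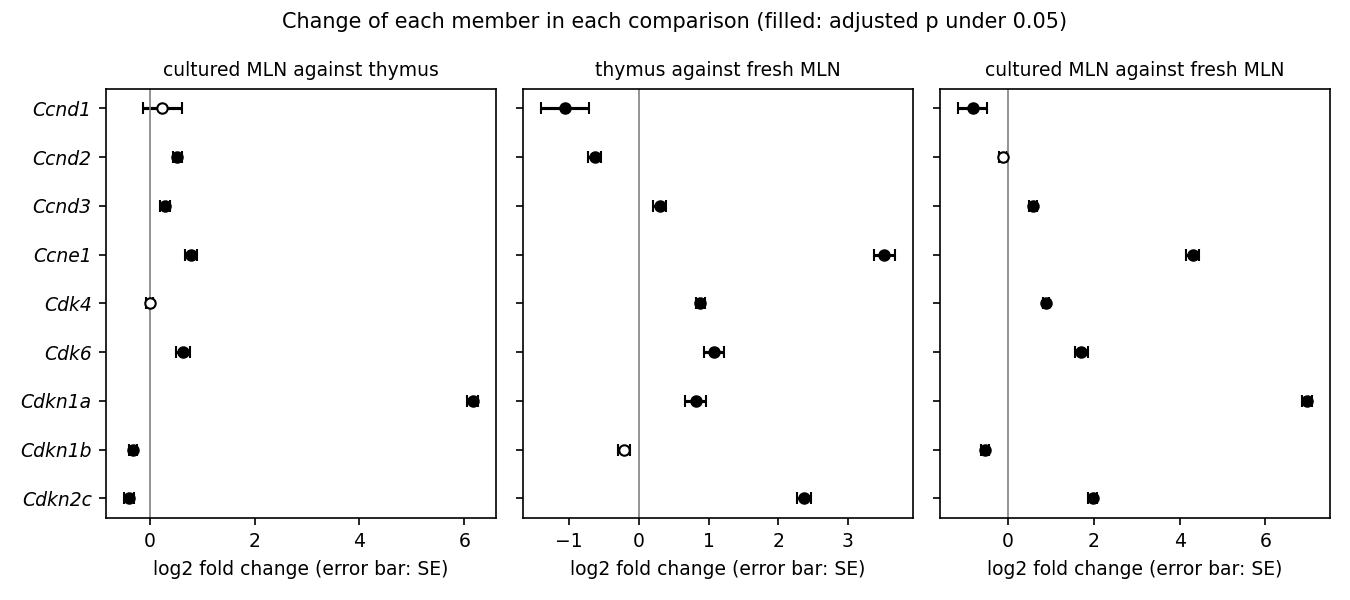
Log2 fold change of each of the 9 members with its SE in the 3 comparisons; filled points passed an adjusted p of 0.05 and open points did not. Cdkn1a lies at 6.16 in cultured MLN against thymus and 0.81 in thymus against fresh MLN, while Ccne1 lies at 0.78 and 3.53.

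Cdkn1a (ENSMUSG00000023067, chromosome 17) encodes p21, which halts the cycle when it builds up on CDK2 complexes. It had 272.1 and 270.6 CPM in cultured MLN, against 4.12 and 3.46 CPM in thymus and 1.88 and 2.44 CPM in fresh MLN. Behind these values were 9018 and 9814 counts in cultured MLN, 167 and 130 in thymus and 73 and 92 in fresh MLN. The cultured libraries were far above all others and the 3 groups did not overlap. Cdkn1a was higher in cultured MLN than in thymus, with a log2 fold change of 6.16 ± 0.10 (SE; 71.4-fold, adjusted p = 3.6e-14) and higher than in fresh MLN by 6.97 ± 0.11 (126-fold, adjusted p = 2.17e-14). Thymus was above fresh MLN by 0.81 ± 0.15 (adjusted p = 0.000553). Under the 13 alternatives the first change lay between 5.90 and 6.29. Per kilobase of exon, Cdkn1a exceeded 95.4% of 15486 genes in cultured MLN, 27.1% in thymus and 23.1% in fresh MLN.

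Cdkn1b (ENSMUSG00000003031, chromosome 6) encodes p27, the inhibitor that is typically high in resting lymphocytes. It had 259 and 236 CPM in cultured MLN, against 298 and 319 CPM in thymus and 331.5 and 383 CPM in fresh MLN. The groups were ordered without overlap, cultured MLN lowest and fresh MLN highest. Cdkn1b was lower in cultured MLN than in thymus, with a log2 fold change of -0.32 ± 0.08 (adjusted p = 0.00363) and lower than in fresh MLN by -0.53 ± 0.08 (adjusted p = 5.87e-05). The first call was lost without cultured MLN replicate 2 (-0.25, adjusted p = 0.0629). Between thymus and fresh MLN the change was -0.21 ± 0.08 (95% interval -0.39 to -0.03) with an adjusted p of 0.0511, just outside the threshold. It passed with RLE factors (adjusted p = 0.0298), DESeq2 (0.0214), no filter (0.0181) and a filter of 5 CPM (0.0411). Not every alternative passed, and over the 13 of them the change lay between -0.31 and -0.11.

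Cdkn2c (ENSMUSG00000028551, chromosome 4) encodes p18, an INK4 inhibitor of CDK4 and CDK6. It had 25.1 and 29.7 CPM in cultured MLN, against 36.5 and 35.8 CPM in thymus and 6.81 and 7.17 CPM in fresh MLN. Both proliferating groups lay well above fresh MLN, with thymus the higher of them and no overlap. Cdkn2c was lower in cultured MLN than in thymus, with a log2 fold change of -0.40 ± 0.09 (adjusted p = 0.00171), higher in thymus than in fresh MLN by 2.37 ± 0.10 (5.17-fold, adjusted p = 1.12e-09) and higher in cultured MLN than in fresh MLN by 1.97 ± 0.11 (3.92-fold, adjusted p = 1.28e-09). This inhibitor was thus higher in both proliferating groups than in fresh MLN.

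Within each library the inhibitors can be set against each other per kilobase of exon, as ratios and shares that TMM factors do not touch. Cdkn1a was 1.35 and 1.47 times Cdkn1b in cultured MLN, 0.0177 and 0.0139 times in thymus and 0.00725 and 0.00817 times in fresh MLN. Cdkn1a made up 53.6% and 54.8% of the summed level of the 3 measured inhibitors in cultured MLN, 1.45% and 1.15% in thymus and 0.696% and 0.786% in fresh MLN. Cdkn1b made up 39.8% and 37.2% in cultured MLN, 81.6% and 83.1% in thymus and 96.0% and 96.2% in fresh MLN. The measured inhibitor message was thus mainly Cdkn1a and Cdkn1b together in culture and mostly Cdkn1b in both groups taken straight from the animal. Cdkn2c made up 6.55% and 7.96% in cultured MLN, 16.9% and 15.8% in thymus and 3.34% and 3.05% in fresh MLN. The summed level was 141 ± 2.69 CPM per kilobase in cultured MLN, 82.3 ± 3.05 in thymus and 81.7 ± 8.20 in fresh MLN (SD, n = 2 each). Unlike the ratios and shares, these sums depend on the scaling of the libraries. Exon lengths came from a later annotation, and the length of the transcripts in these cells was not measured.

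**Figure D2:**
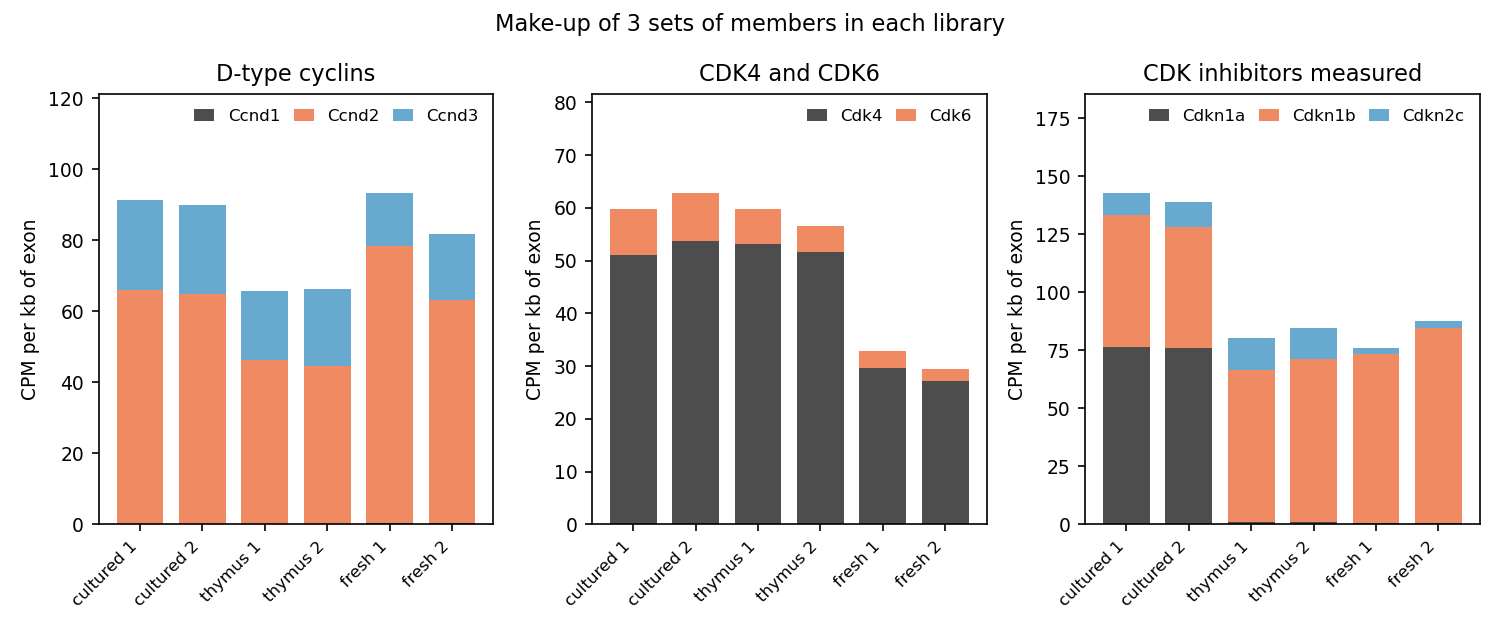
Level of the D-type cyclins, of Cdk4 and Cdk6, and of the 3 measured inhibitors in each of the 6 libraries, in CPM per kilobase of exon, stacked by gene. Cdkn1a forms 53.6% and 54.8% of the inhibitor bars in cultured MLN and at most 1.45% elsewhere, and Ccnd2 is the bulk of every D-type cyclin bar.

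Ccnd2 (ENSMUSG00000000184, chromosome 6) encodes cyclin D2, a D-type cyclin of lymphocytes. It had 620 and 609 CPM in cultured MLN, against 434 and 419 CPM in thymus and 735 and 592 CPM in fresh MLN. Thymus was lowest and did not overlap with either other group, while cultured and fresh MLN overlapped. Ccnd2 was higher in cultured MLN than in thymus, with a log2 fold change of 0.53 ± 0.09 (adjusted p = 0.000167, and 0.27 with adjusted p = 0.0175 on library totals alone), and lower in thymus than in fresh MLN by -0.64 ± 0.09 (adjusted p = 8.73e-05). Cultured against fresh MLN gave -0.11 ± 0.09 (95% interval -0.31 to 0.09, adjusted p = 0.281). That comparison passed the threshold on library totals alone (-0.33, adjusted p = 0.00472) and without fresh MLN replicate 2 (-0.27, adjusted p = 0.00957). The order of the groups by Ccnd2 was not their order by Mki67, since fresh MLN, with the lowest Mki67, lay above thymus in Ccnd2.

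Ccnd3 (ENSMUSG00000034165, chromosome 17), which encodes cyclin D3, had 222 and 220 CPM in cultured MLN, against 171 and 191 CPM in thymus and 130 and 163 CPM in fresh MLN. The groups were ordered, cultured MLN highest, with no overlap. Ccnd3 was higher in cultured MLN than in thymus, with a log2 fold change of 0.29 ± 0.09 (adjusted p = 0.0134), higher in thymus than in fresh MLN by 0.30 ± 0.09 (adjusted p = 0.0194) and higher in cultured MLN than in fresh MLN by 0.59 ± 0.09 (adjusted p = 7.13e-05). The calls of the smaller steps did not hold under every alternative. The first was lost on library totals alone (0.03, adjusted p = 0.748), without cultured MLN replicate 1 (0.29, adjusted p = 0.0599) and without thymus replicate 1 (0.21, adjusted p = 0.0977). The second was lost without thymus replicate 2 (0.22, adjusted p = 0.109) and without fresh MLN replicate 1 (0.15, adjusted p = 0.206), and was 0.46 without fresh MLN replicate 2. A pseudogene, Ccnd3-ps, is 96.3% identical over 881 bases and had 5.31 and 6.40 CPM in cultured MLN, 4.34 and 4.65 CPM in thymus and 3.08 and 2.31 CPM in fresh MLN, so some reads of either could have been given to the other.

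Ccnd1 (ENSMUSG00000070348, chromosome 7), which encodes cyclin D1, the D-type cyclin of many non-lymphoid cells, was the least abundant member. It had 20 and 36 counts in cultured MLN, 28 and 25 in thymus and 64 and 45 in fresh MLN, equal to 0.603 and 0.992 CPM, 0.690 and 0.665 CPM, and 1.64 and 1.195 CPM in the same order. Fresh MLN was above the other groups, which overlapped. Cultured MLN against thymus gave a log2 fold change of 0.24 ± 0.37 (95% interval -0.56 to 1.05, adjusted p = 0.569). Ccnd1 was lower in thymus than in fresh MLN by -1.06 ± 0.34 (adjusted p = 0.0214) and lower in cultured MLN than in fresh MLN by -0.82 ± 0.34 (adjusted p = 0.0412). Neither call was firm at these counts. The first was lost with DESeq2 (adjusted p = 0.056), without thymus replicate 1 (0.0735), without thymus replicate 2 (0.0844) and without fresh MLN replicate 1 (0.153), and the second with DESeq2 (0.126), without cultured MLN replicate 1 (0.267) and without fresh MLN replicate 1 (0.24). In the later annotation 23.4% of its exon bases overlap LTO1 on the opposite strand, and LTO1 had 23.4 to 38.4 CPM. How counting used strand and treated overlaps is not given in the sources used here. Whether reads of this overlap were added to Ccnd1 or left out therefore cannot be told.

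As a set, D-type cyclin message was made up mainly of Ccnd2, at 72.2% and 71.9% of the set per kilobase in cultured MLN, 70.2% and 67.1% in thymus and 83.7% and 77.0% in fresh MLN. The ratio of Ccnd2 to Ccnd3 was 2.61 and 2.58 in cultured MLN, 2.37 and 2.05 in thymus and 5.25 and 3.39 in fresh MLN. Ccnd3 thus took a greater part of the set in every library of the proliferating groups than in fresh MLN, where the 2 libraries differed widely. The summed level was 90.7 ± 0.919 CPM per kilobase in cultured MLN, 66.1 ± 0.53 in thymus and 87.5 ± 8.21 in fresh MLN (SD, n = 2 each).

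Ccne1 (ENSMUSG00000002068, chromosome 7) encodes cyclin E1, the E2F-driven partner of CDK2 at the start of S phase. It had 27.1 and 30.5 CPM in cultured MLN, against 15.4 and 18.1 CPM in thymus and 1.31 and 1.59 CPM in fresh MLN. The 3 groups were far apart and did not overlap. Ccne1 was higher in cultured MLN than in thymus, with a log2 fold change of 0.78 ± 0.11 (adjusted p = 3.07e-05), higher in thymus than in fresh MLN by 3.53 ± 0.15 (11.5-fold, adjusted p = 1.01e-09) and higher in cultured MLN than in fresh MLN by 4.31 ± 0.15 (19.8-fold, adjusted p = 1.67e-11). Fresh MLN held 51 and 60 counts, which limits the precision of the last 2 folds. Ccne2, which encodes the other E-type cyclin and is not a member, averaged 26.2 ± 1.61 CPM in cultured MLN, 25.2 ± 0.213 CPM in thymus and 4.69 ± 0.242 CPM in fresh MLN (SD, n = 2 each). It did not pass in cultured MLN against thymus (0.06 ± 0.09, adjusted p = 0.566) and was higher in thymus than in fresh MLN by 2.42 ± 0.10 (adjusted p = 8.97e-10); the difference between the E-type cyclins was not tested.

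Cdk4 (ENSMUSG00000006728, chromosome 10), a kinase that partners D-type cyclins, had 166 and 174 CPM in cultured MLN, against 172 and 168 CPM in thymus and 96.4 and 88.0 CPM in fresh MLN. The proliferating groups overlapped and both lay above fresh MLN. Cultured MLN against thymus gave a log2 fold change of -0.0014 ± 0.07 (95% interval -0.15 to 0.15, adjusted p = 0.987), although on library totals alone it was lower in cultured MLN (-0.26, adjusted p = 0.00372). Cdk4 was higher than in fresh MLN by 0.88 ± 0.07 in thymus (adjusted p = 3.16e-07) and by 0.88 ± 0.07 in cultured MLN (adjusted p = 6.31e-08). On the opposite strand Tspan31 overlaps 19.7% of its exon bases in the later annotation, and Tspan31 had 63.6 and 66.6 CPM in cultured MLN, 41.6 and 43.2 CPM in thymus and 34.4 and 33.1 CPM in fresh MLN. How counting used strand is not given in the sources used here, so reads of this overlap cannot be assigned.

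Cdk6 (ENSMUSG00000040274, chromosome 5), the other D-type cyclin kinase and a known regulator of blood cell growth, had 122 and 128 CPM in cultured MLN, against 93.6 and 66.99 CPM in thymus and 43.5 and 32.7 CPM in fresh MLN. The groups were ordered with no overlap, but the 2 thymus libraries differed widely. Cdk6 was higher in cultured MLN than in thymus, with a log2 fold change of 0.64 ± 0.14 (adjusted p = 0.00101), higher in thymus than in fresh MLN by 1.08 ± 0.14 (adjusted p = 4.84e-05) and higher in cultured MLN than in fresh MLN by 1.71 ± 0.14 (3.28-fold, adjusted p = 1.37e-07). The first value was 0.41 (adjusted p = 0.00758) without thymus replicate 2 and 0.38 (adjusted p = 0.0257) on library totals alone. Per kilobase, Cdk4 was 5.85 and 5.86 times Cdk6 in cultured MLN, 7.94 and 10.8 times in thymus and 9.55 and 11.6 times in fresh MLN. Cdk4 was the more abundant kinase in all 6 libraries, by the smallest margin in the cultured ones. The summed level of both was 61.3 ± 2.17 CPM per kilobase in cultured MLN, 58.1 ± 2.31 in thymus and 31.1 ± 2.38 in fresh MLN (SD, n = 2 each).

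**Figure D3:**
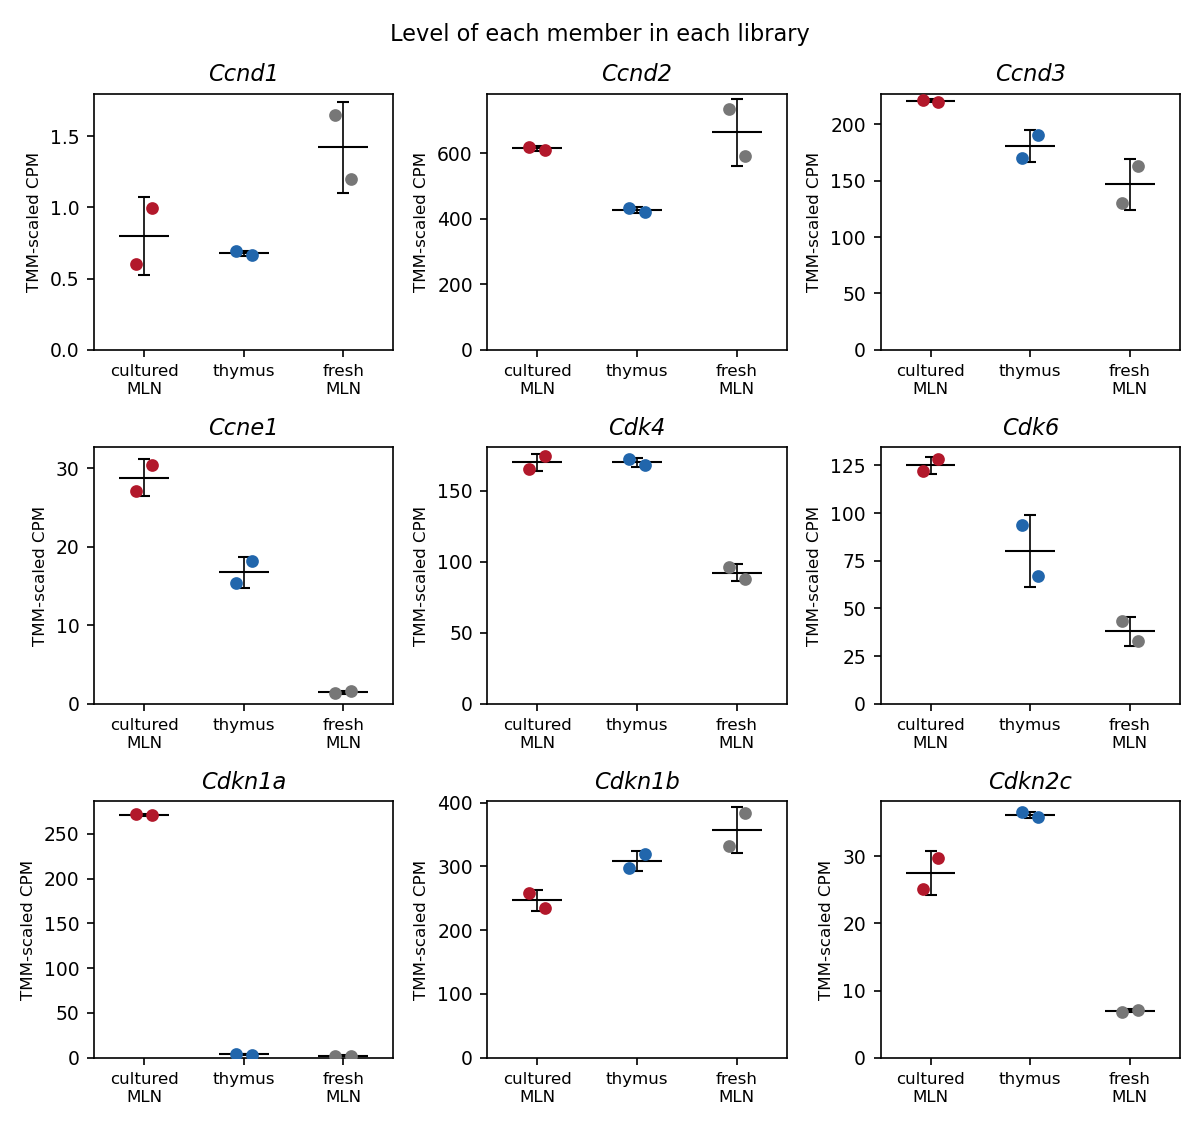
TMM-scaled CPM of the 9 members in each library of cultured MLN, thymus and fresh MLN; points are libraries, lines the mean and bars the SD of 2. Cdkn1a is high in cultured MLN alone, at 272.1 and 270.6 CPM, and Ccne1 and Cdkn2c are high in both proliferating groups. Cdkn1b is lowest in cultured MLN and highest in fresh MLN, with smaller differences, and was not called in thymus against fresh MLN.

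Across the 3 groups the members followed several patterns. In thymus against fresh MLN, 6 of the 9 members were higher (Ccnd3, Ccne1, Cdk4, Cdk6, Cdkn1a, Cdkn2c), 2 were lower (Ccnd1, Ccnd2) and Cdkn1b was not called, where 25.3% of all genes were higher, 22% lower and 47.3% called in either direction. The members' median log2 fold change was 0.81 in that comparison. In cultured against fresh MLN, 6 were higher (Ccnd3, Ccne1, Cdk4, Cdk6, Cdkn1a, Cdkn2c), 2 were lower (Ccnd1, Cdkn1b) and Ccnd2 was not called, where 39.4% of all genes were higher, 38.1% lower and 77.6% called in either direction. The median there was 0.88, against -0.01 over all genes. These 2 comparisons share the fresh MLN libraries, so their overlap is not independent.

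Genes with the profile nearest to a member over the 6 libraries were found among 15485 genes. The measure was the Euclidean distance of log2 CPM, taken after adding 0.5 CPM and centred on each gene. Nearest to Cdkn1a were Ptger3 (distance 0.300), which encodes a prostaglandin E2 receptor, and Gpr141 (distance 0.397), an orphan receptor gene. Ptger3 averaged 53.4 CPM in cultured MLN, 0.496 CPM in thymus and 0.118 CPM in fresh MLN. Gpr141 averaged 44.3 CPM, 0.240 CPM and 0.0261 CPM in the same order. Both averaged under 0.5 CPM in thymus and fresh MLN, where the added value shapes the distance. Nearest to Ccne1 were Cks1b (distance 0.335), which encodes a CDK subunit and averaged 50.1 CPM in cultured MLN, 33.4 CPM in thymus and 2.60 CPM in fresh MLN, and Cdc25c (distance 0.383), a phosphatase gene of mitotic entry. Nearest to Cdkn2c were Xkr5 (distance 0.205) and Chaf1b (distance 0.212), which encodes a subunit of a histone chaperone of DNA replication and averaged 19.3 CPM in cultured MLN, 26.8 CPM in thymus and 4.83 CPM in fresh MLN.

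Because Cdkn1a is a target of p53, 16 other p53 target genes were examined in the same fit. In cultured MLN against thymus 11 of the 16 were higher, 3 were lower and 2 were not called, with a median log2 fold change of 1.71 against -0.06 over all genes. Of all genes 34.8% were higher and 37.8% lower. Fas, a death receptor gene, averaged 34.7 ± 2.86 CPM in cultured MLN and 1.25 ± 0.0774 CPM in thymus (SD, n = 2 each), a log2 fold change of 4.79 ± 0.14 (adjusted p = 4.46e-12). Phlda3, which encodes an inhibitor of AKT signalling, averaged 20.7 ± 0.270 CPM in cultured MLN and 1.05 ± 0.0565 CPM in thymus (4.30 ± 0.17, adjusted p = 7.12e-11). Pmaip1, which encodes the cell death protein NOXA, averaged 46.1 ± 0.239 CPM in cultured MLN and 4.77 ± 0.648 CPM in thymus (3.27 ± 0.12, adjusted p = 3.37e-11). The count of 11 higher held with RLE factors, library totals alone and DESeq2, while the lower genes numbered 5 on library totals alone.

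The exceptions, named after their values were seen, were Sesn1 (-0.80 ± 0.07, adjusted p = 2.87e-07), Trp53inp1 (-1.37 ± 0.08, adjusted p = 2.2e-09) and Btg2 (-0.72 ± 0.09, adjusted p = 6.91e-06), all lower in cultured MLN than in thymus. Trp53 itself, which encodes p53, averaged 117 ± 1.22 CPM in cultured MLN and 177.5 ± 4.04 CPM in thymus (SD, n = 2 each) and was lower by a log2 fold change of -0.60 ± 0.06 (adjusted p = 1.61e-06). In thymus against fresh MLN 3 of the 16 target genes were higher and 7 lower, with a median of -0.14. In cultured against fresh MLN 11 were higher and 5 lower, with a median of 1.73. Of all genes, 25.3% were higher and 22% lower in thymus, and 39.4% and 38.1% in cultured MLN, each against fresh MLN. The promoter windows found for 12 of these genes, 16 in all, held 0 matches to the p53 site as defined for Cdkn1a. Such matches stood in only 0.0548% of all windows, the definition was set on Cdkn1a, and bases outside the windows were not searched. The count of 0 therefore does not show whether p53 acts on these genes. Protein levels and p53 activity were not measured.

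**Figure D4:**
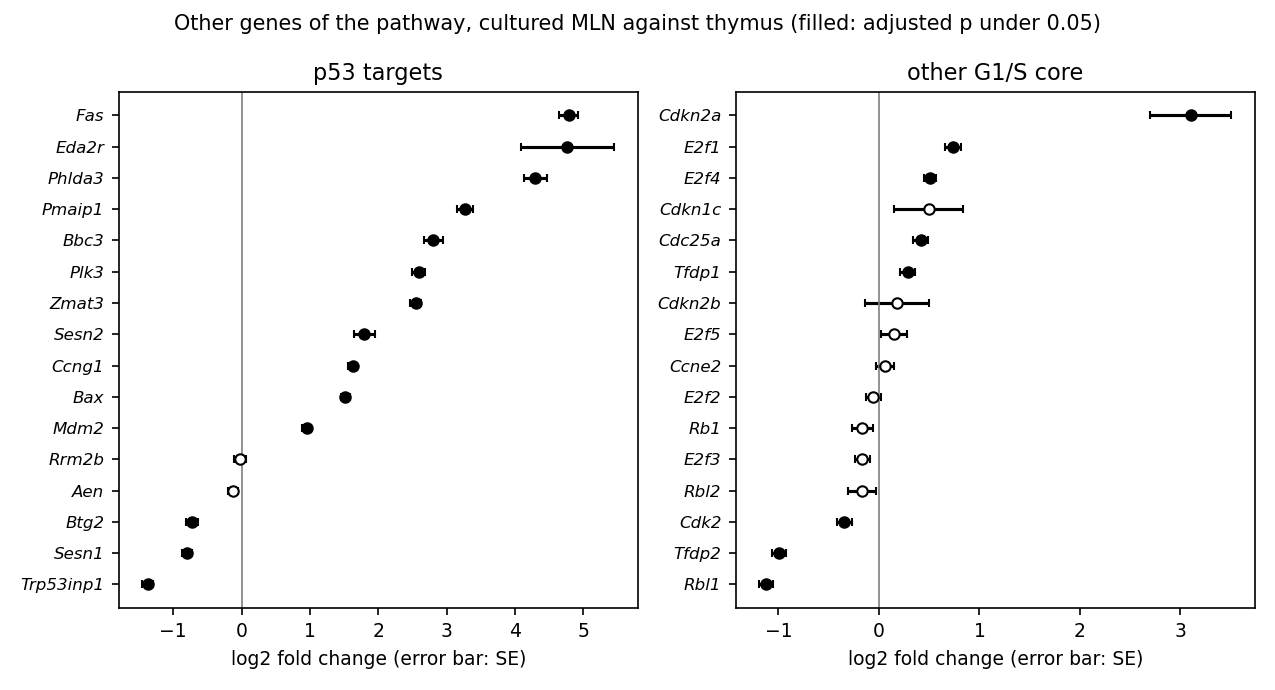
Log2 fold change with SE in cultured MLN against thymus of 16 p53 target genes and 16 other genes of the G1/S core, sorted by value; filled points passed an adjusted p of 0.05. Of the p53 targets 11 lie right of 0 as called genes, from Mdm2 at 0.95 to Fas at 4.79, while 8 of the G1/S core genes have open points.

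Of 16 other genes of the G1/S core, 5 were higher in cultured MLN than in thymus, 3 were lower and 8 were not called, with a median log2 fold change of 0.10 (on library totals alone, 3 higher and 7 lower). Over all genes the median was -0.06, with 34.8% higher and 37.8% lower. Rbl1, which encodes the pocket protein p107, averaged 56.1 ± 0.250 CPM in cultured MLN and 122 ± 5.02 CPM in thymus (-1.12 ± 0.07, adjusted p = 4.08e-09). Tfdp2, which encodes a partner of E2F, averaged 30.9 ± 0.728 CPM in cultured MLN and 61.6 ± 1.70 CPM in thymus (-0.996 ± 0.07, adjusted p = 2.92e-08). E2f1, which encodes an activating E2F, averaged 48.5 ± 0.104 CPM in cultured MLN, 29.2 ± 0.839 CPM in thymus and 2.13 ± 0.216 CPM in fresh MLN, and was higher in cultured MLN than in thymus by 0.73 ± 0.08 (adjusted p = 2.26e-06), the direction seen for Ccne1. Against fresh MLN 10 of the 16 were higher in thymus and 2 lower, with a median of 1.02, and 10 were higher in cultured MLN and 4 lower, with a median of 0.76. Of all genes, 25.3% were higher and 22% lower in thymus, and 39.4% and 38.1% in cultured MLN.

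Of 10 genes for the turnover of cyclins and inhibitors, 3 were higher in cultured MLN than in thymus, 6 were lower and 1 was not called, with a median log2 fold change of -0.72. Over all genes the median was -0.06, with 34.8% higher and 37.8% lower. Fbxw7, which encodes the ubiquitin ligase subunit that marks cyclin E for destruction, averaged 18.7 ± 0.275 CPM in cultured MLN and 57.1 ± 2.00 CPM in thymus (-1.61 ± 0.09, adjusted p = 2.98e-09). Usp28, which encodes a deubiquitinase that counters it, averaged 7.55 ± 0.0333 CPM in cultured MLN and 42.3 ± 1.12 CPM in thymus (-2.49 ± 0.09, adjusted p = 5.41e-11). Fbxo31, which encodes an F-box protein linked to cyclin D1 in human cells, was lower by -1.22 ± 0.15 (adjusted p = 6.24e-06). In thymus against fresh MLN 4 of the 10 were higher and 2 lower, and in cultured against fresh MLN 5 were higher and 5 lower. Of all genes, 47.3% were called in the first of these comparisons and 77.6% in the second.

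Among 12 transcriptional regulators of the members, 4 were higher in cultured MLN than in thymus and 7 were lower, with a median log2 fold change of -0.27. Over all genes the median was -0.06, with 34.8% higher and 37.8% lower. Myc, which drives G1 progression and represses Cdkn1a, averaged 181 ± 2.76 CPM in cultured MLN and 83.2 ± 2.16 CPM in thymus (1.12 ± 0.09, adjusted p = 1.02e-07). Foxo1, which encodes a factor that activates Cdkn1b, averaged 43.9 ± 1.32 CPM in cultured MLN and 94.4 ± 4.48 CPM in thymus (-1.10 ± 0.07, adjusted p = 1.9e-08). Smad3, which encodes the TGF-beta signal transducer, averaged 101 ± 0.795 CPM in cultured MLN and 217 ± 5.82 CPM in thymus (-1.11 ± 0.06, adjusted p = 4.05e-09). In thymus against fresh MLN 2 of the 12 were higher and 3 lower, and in cultured against fresh MLN 4 were higher and 6 lower. Of all genes, 47.3% were called in the first of these comparisons and 77.6% in the second.

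Of 4 genes for CDK activation and assembly, 1 was higher and 1 lower in cultured MLN than in thymus, where 34.8% of all genes were higher and 37.8% lower. Cdc37, which encodes a chaperone that folds CDK4, was higher by a log2 fold change of 0.23 ± 0.08 (adjusted p = 0.0171), and Cdk7, the CDK-activating kinase, was lower by -0.22 ± 0.07 (adjusted p = 0.0162). The call of Cdc37 was absent on library totals alone, and that of Cdk7 with RLE factors and with DESeq2. Within the proliferation list the genes with the largest changes by the naming rule were Mcm6 (-0.80 ± 0.08, adjusted p = 1.39e-06) and Mcm7 (-0.79 ± 0.06, adjusted p = 1.33e-07), subunits of the replicative helicase and lower in cultured MLN, and Cdk1 (0.72 ± 0.09, adjusted p = 7.83e-06), the mitotic kinase gene and higher in cultured MLN.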

How the data were processed

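Messenger RNA of 6 libraries of sorted mouse ILC2 was sequenced after a stranded kit, per the labels' protocols. The authors deposited raw counts of reads per Ensembl gene for each library, with no normalization. HTSeq 0.5.3p9 and the builds mm9 and NCBIM37 are named per the submitters' processing notes, with aligner, annotation release and strand use not given in the sources used here. Symbols and exon lengths came from a later annotation (GENCODE M21), promoter sequences from RefSeq.

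The filterByExpr rule of edgeR 4.0.16 (R 4.3.3) kept 16231 of 23871 genes with a count. Libraries were scaled with TMM factors and fitted together, 1 mean per group, with no replicate block. Comparisons used the two-sided quasi-likelihood F test with Benjamini-Hochberg adjustment over all genes tested, and a gene is called at an adjusted p under 0.05. All adjusted p values of single genes are from this edgeR test unless DESeq2 is named. The SE of a log2 fold change is its absolute value divided by the square root of F. An exact permutation of 4 libraries in 2 groups gives no p below 0.333, so none was run. Replicates differed beyond counting noise, with a mean chi-square per gene of 8.36 to 13.5. The fit was also run on counts simulated from its own model with 200 genes changed, far fewer than were called here. That run cannot test the scaling or the error rate in these data. Alternatives were RLE factors, library totals alone, no filter, at least 5 CPM in 2 libraries, DESeq2 1.42.0, only the groups compared, a replicate block and leaving out each library.

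The members and gene lists were chosen with earlier results of these data known. All members are named, then from each pathway list up to 3 called genes, with 5 CPM or more in the higher of cultured MLN and thymus, that changed most between these groups, and for the 3 members with the widest range the 2 nearest profiles. Ccne2, Mki67, Mdm2 and the p53 targets and regulator marked so in the text were added after their values were seen. One marker gene of another cell type is not reported here.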

Additional observations from a re-analysis of the deposited data

How the results depend on the processing

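Among alternative values of the members' log2 fold changes, 325 kept their side of the threshold, 13 lost the call and 10 gained one, and why they moved was not tested. No called value changed sign, but values that missed the threshold did, such as Ccnd1 in cultured MLN against thymus (-0.16 without cultured MLN replicate 2). The number of members lower was 1 to 2 when 1 library was left out in cultured MLN against thymus and 1 to 2 in thymus against fresh MLN. In cultured against fresh MLN it was 1 to 3 with 1 library left out, 1 with DESeq2 and 1 with at least 5 CPM in 2 libraries, a filter that removes Ccnd1. What the replicate numbers mean is not stated in the labels. Deviations of same-numbered libraries correlated with r of 0.06 (cultured MLN and thymus), 0.03 (cultured and fresh MLN) and 0.20 (thymus and fresh MLN), so the numbers were not treated as pairs. With a replicate block the members were 5 higher and 2 lower in cultured MLN against thymus, 6 and 3 in thymus against fresh MLN (Cdkn1b, adjusted p = 0.0358) and 6 and 2 in cultured against fresh MLN. On library totals alone the members' mean levels in cultured MLN moved down, for example Ccnd2 to 550.1 CPM and Cdkn1a to 243 CPM. Without exon lengths the log2 ratio of Cdkn1a to Cdkn1b was 0.14 in cultured MLN, -6.35 in thymus and -7.38 in fresh MLN. Depth limits Ccnd1, with 53 to 109 counts per group.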

Other observations

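Cdkn2a, the INK4 and ARF locus and not a member, was named after its values were seen. It averaged 2.22 ± 0.449 CPM in cultured MLN and 0.256 ± 0.0138 CPM in thymus (SD, n = 2 each), and was higher in cultured MLN by a log2 fold change of 3.10 ± 0.40 (edgeR, adjusted p = 1.3e-05). The related Cdkn2b averaged 1.41 ± 0.542 CPM in cultured MLN, 1.25 ± 0.00498 CPM in thymus and 0.496 ± 0.0254 CPM in fresh MLN. Cdkn2b was higher in thymus than in fresh MLN by 1.33 ± 0.36 (adjusted p = 0.00889) and in cultured MLN than in fresh MLN by 1.51 ± 0.36 (adjusted p = 0.00193). Both genes were low beside Cdkn2c in every group. Cdkn1c, the remaining CIP/KIP inhibitor gene, averaged 1.09 ± 0.253 CPM in cultured MLN, 0.768 ± 0.00508 CPM in thymus and 0.825 ± 0.222 CPM in fresh MLN and was called in none of the 3 comparisons.

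Cks1b and Skp2, whose proteins act together in the breakdown of p27, differed in direction between the proliferating groups. Cks1b averaged 50.1 ± 4.73 CPM in cultured MLN and 33.4 ± 5.11 CPM in thymus (SD, n = 2 each; log2 fold change 0.58 ± 0.10, adjusted p = 0.000219), while Skp2 averaged 12.2 ± 1.43 CPM in cultured MLN and 19.7 ± 1.49 CPM in thymus (-0.69 ± 0.11, adjusted p = 0.000119). Both were higher in thymus than in fresh MLN, Cks1b by 3.68 ± 0.14 and Skp2 by 1.39 ± 0.12 (adjusted p = 2.56e-10 and 7.87e-07). These genes were named after their values were seen.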
